A study of Mus musculus with 10 samples.

Results

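The 8 genes described here encode signalling proteins of striatal projection neurons, the inhibitory output cells of the striatum. They are Adora2a, Gpr6, Gnal, Gng7, Ppp1r1b, Rgs9, Rasgrp2 and Syndig1l, and they were taken by name, as genes of this function. All 8 of them were found among the 25050 genes of the count table, 7 by symbol and 1, Syndig1l, by its Ensembl identifier under the older symbol Tmem90a. RNA was measured in whole brains of FVB/NJ mice: 5 wildtype animals (Abcc5+/+) and 5 knockout animals (Abcc5-/-). Abcc5 encodes an ATP-driven export pump, and the series title concerns its role in moving glutamate conjugates and analogs. The animals were killed with CO2, and sequencing libraries were made from polyadenylated RNA. Age and sex are not stated in the sources used here, nor are the deleted exons, and the labels name no treatment. In edgeR, 0 of the 8 genes passed after adjustment over 14526 genes, where 1.18% of all tested genes did. The values of the genotypes overlapped for all 8, and 4.19% of all tested genes had groups without overlap. Before adjustment, Gng7 alone had a 95% interval of the log2 fold change (knockout over wildtype) that excluded 0, from 0.0027 to 0.31. An unadjusted p under 0.05 was found in edgeR for 14.8% of all tested genes.

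Striatal projection neurons form a direct pathway, whose cells carry the dopamine receptor Drd1, and an indirect pathway, whose cells carry Drd2 together with the adenosine receptor Adora2a. Receptors that raise cyclic AMP act in these cells through an olfactory-type G protein, whose alpha subunit is the product of Gnal, and through the adenylyl cyclase Adcy5. Cyclic AMP activates protein kinase A, which phosphorylates DARPP-32, the product of Ppp1r1b, and turns it into an inhibitor of protein phosphatase 1. In bulk RNA from a whole brain, fewer cells of a type and less RNA per cell cannot be told apart. Several of the genes are also active outside the striatum, so their level is a sum over regions.

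Total counts per library ranged from 7731294 to 23588335, and 3 libraries were deeper (wildtype 1, knockout 2 and knockout 4, each with at least 19795743 counts). Abcc5 transcripts fell from 311 ± 12.6 to 219 ± 5.95 CPM, that is, counts scaled to a common library size (mean ± SD, n = 5 per group; log2 fold change -0.51, SE 0.041, edgeR adjusted p = 6.35e-06). Of the region markers, 3 knockout libraries stood apart. In knockout 3 the 20 tested cerebellar markers averaged -2.93 log2 units from the wildtype mean and the 8 hindbrain markers -2.80. The granule cell gene Gabra6 was at 1.58 CPM there, against 150.0 to 181 CPM in the other 9 libraries, and the Hox genes Hoxa5, Hoxc4 and Hoxd3 had a count of 0. In knockout 1 and knockout 2 the 11 olfactory bulb markers averaged -1.67 and -1.46, the mitral cell gene Cdhr1 stood at 6.02 and 8.84 CPM against 24.4 to 36.4 CPM in wildtype brains, and Tbx21 had a count of 0 in knockout 1. Summed cerebellar markers ranged from 3805 to 4033 CPM in wildtype brains and from 1697 to 4369 CPM in knockouts, with 1 marker (Cbln1, at 1 of its 2 identifiers) at 0. Summed olfactory bulb markers ranged from 381 to 400.0 CPM and from 323 to 400.1 CPM, and summed hindbrain markers from 104 to 116 CPM and from 23.1 to 129.9 CPM. Summed microglial markers ranged from 237 to 259 CPM in wildtype brains and from 275 to 329.8 CPM in knockouts, with no marker at 0. The part of these differences in the results below was not tested, and the main values are given with and without these libraries. Leaving out knockout 1, 2 and 3 together leaves knockout 4 and 5 as the only knockouts.

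In the edgeR quasi-likelihood test over 14526 genes, 0 of the 8 genes passed an adjusted p of 0.05, where 1.18% of all tested genes did. Of all tested genes 0.213% passed as higher and 0.964% as lower in knockout brains. At an unadjusted p under 0.05 there was 1 gene of the 8, Gng7, against 14.8% of all tested genes. That count was 2 in DESeq2 and without the low-count filter (Adora2a and Gng7), 3 among the shallower libraries, 4 without knockout 4 (Adora2a, Gng7, Ppp1r1b and Rgs9), and 0 in limma-voom or without any 1 of wildtype 3 and 5 and knockout 1, 2 and 3. The share of all tested genes is not given here for those other fits, so those counts are not set against 14.8%. Knockout 4 was the lowest library for 6 of the 8 genes. DESeq2 called 0 of the 8 by its Wald test, and so did limma-voom, with or without sample weights. Wildtype and knockout values overlapped for all 8 genes, and 4.19% of all tested genes had groups without overlap. The median log2 fold change (knockout over wildtype) was 0.087 over the 8 genes and 0.0042 over all tested genes, with 7 estimates above 0 and 1 below. Over the 8 genes, the 95% intervals of the ratio of knockout to wildtype reached from 0.772 to 1.43.

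**Figure D1:**
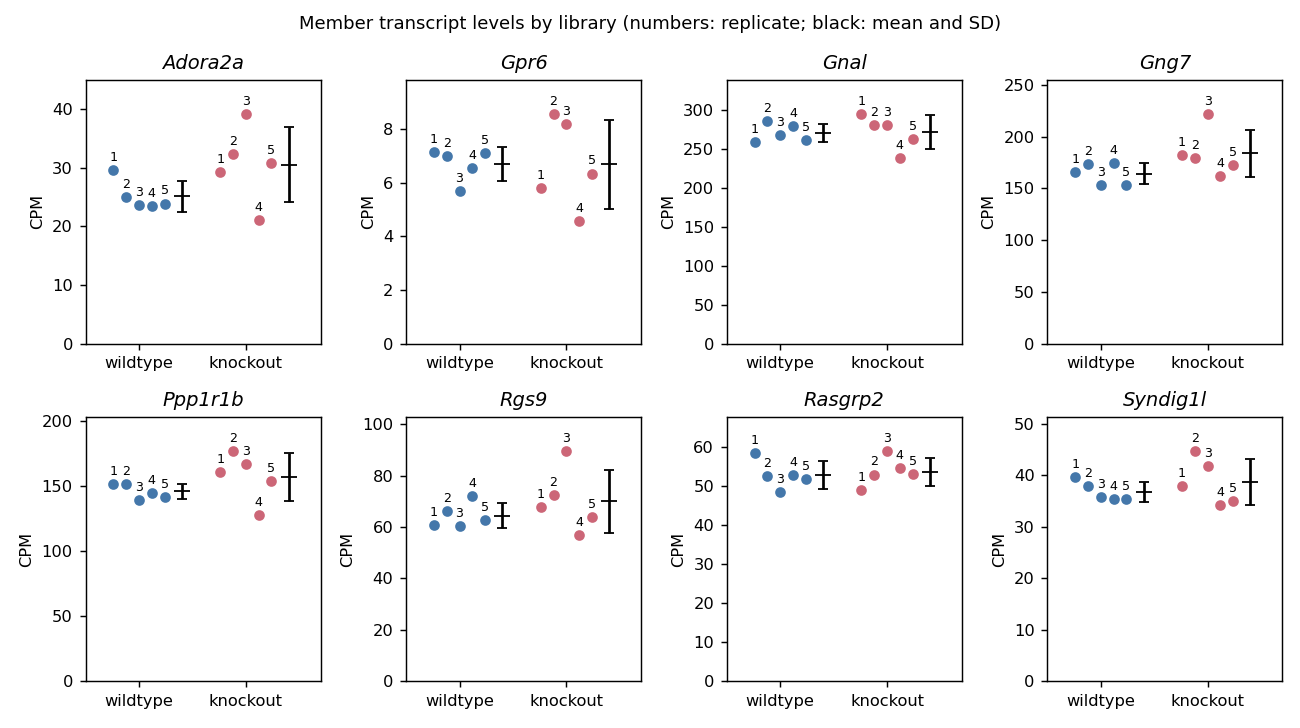
Level of each of the 8 genes in CPM (linear axes from 0), 1 point per library labelled with its replicate number, for 5 wildtype and 5 knockout brains; black marks give the mean and SD. The groups overlap in all 8 panels, and knockout 2 or knockout 3 is the highest library for 7 of the 8 genes.

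Among the receptors, Adora2a, the adenosine receptor of indirect-pathway neurons that raises cyclic AMP, lies on chromosome 10 from 74779688 to 74797533 as the authors' table lists it. The build behind its positions is not given in the sources used here. Its level was 29.7, 25.1, 23.6, 23.5 and 23.9 CPM in wildtype brains 1 to 5 and 29.3, 32.4, 39.2, 21.2 and 30.8 CPM in knockout brains 1 to 5. Wildtype 1 stood above the other 4 wildtype brains, knockout 2, 3 and 5 stood above every wildtype brain, and knockout 4 was the lowest of all 10. The means were 25.1 ± 2.60 CPM and 30.6 ± 6.47 CPM (SD, n = 5 each). The log2 fold change of Adora2a was 0.24 (SE 0.129, 95% interval -0.036 to 0.51), with an adjusted p of 0.414 in edgeR. Among the 7 shallower libraries it was 0.46 (adjusted p = 0.0939). The 3 deeper libraries, the high wildtype 1 against knockout 2 and 4, gave -0.16, a value that rests on a single wildtype library. The difference between the depth classes was not tested. With depth class as a term it was 0.24 (adjusted p = 0.421). It was 0.14 without knockout 3, the library with few cerebellar and hindbrain transcripts, 0.37 without knockout 4 (adjusted p = 0.105), and -0.037 without knockout 1, 2 and 3.

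Gpr6, an orphan receptor of indirect-pathway neurons that signals through cyclic AMP without an added ligand, lies on chromosome 10 from 40789795 to 40792091 and had the lowest level of the group. It was at 7.15, 7.01, 5.68, 6.54 and 7.12 CPM in wildtype brains 1 to 5, and at 5.79, 8.56, 8.18, 4.57 and 6.35 CPM in knockout brains 1 to 5. Knockout 2 and 3 were above all wildtype brains and knockout 4 below them. The means of Gpr6 were 6.70 ± 0.622 CPM and 6.69 ± 1.67 CPM (SD, n = 5 each), and its log2 fold change was -0.029 (SE 0.161, 95% interval -0.37 to 0.31; edgeR adjusted p = 0.964). The lowest count of Gpr6 was 44, in wildtype 3, where the exact 95% Poisson interval of the 5.68 CPM was 4.12 to 7.62 CPM, which covers the whole range over wildtype brains. The log2 fold change of Gpr6 was 0.13 without knockout 4, -0.20 without knockout 2, -0.086 without knockout 3, and -0.40 without knockout 1, 2 and 3 (adjusted p = 0.247).

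Gpr6 has a pair of close relatives, Gpr3 and Gpr12, which also raise cyclic AMP without an added ligand, and Gpr3 differed between genotypes. Its level was 8.71, 9.42, 9.29, 7.94 and 8.28 CPM in wildtype brains 1 to 5, and 5.10, 5.38, 4.75, 4.45 and 6.59 CPM in knockout brains 1 to 5. Every knockout brain was below every wildtype brain. Gpr3 fell by 0.75 on the log2 scale (SE 0.110, edgeR adjusted p = 0.0023), from a mean of 8.73 ± 0.635 CPM to 5.25 ± 0.827 CPM (n = 5 each). The adjusted p of Gpr3 ranged from 0.0011 to 0.0105 when each library was left out in turn, and was 0.113 among the 7 shallower libraries. It was 0.034 without knockout 1 and 2 (log2 fold change -0.78) and 0.019 without knockout 1, 2 and 3 (-0.76). Gpr12 was at 13.9 ± 1.92 CPM in wildtype brains and 13.8 ± 1.60 CPM in knockouts (adjusted p = 0.947). Whether the differences of Gpr3 and Gpr6 are unequal was not tested.

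The promoter windows of Gpr6 and of Gpr3 are shown because Gpr6 was the 1 gene of the 8 whose window held a full cyclic AMP response element, the motif bound by CREB. The element is TGACGTCA, which reads the same on both strands, and each copy contains the half-site TGACG on both strands. RefSeq (assembly GRCm38.p6) gave windows of 250 bases before to 50 after the start for 4 of the 8 genes, Gpr6, Gng7, Rgs9 and Rasgrp2, with 6 windows between them. The reference strain is not FVB/NJ. Window positions do not match the coordinates of the authors' table, where Gpr6 ends at 40792091. Distances between these sets of positions therefore have no meaning. The Gpr6 window is chr10:41072241-41072540 and the Gpr3 window chr4:133212487-133212786, both read from the minus strand 5′ to 3′, with the half-site on either strand in capitals.
Gpr6: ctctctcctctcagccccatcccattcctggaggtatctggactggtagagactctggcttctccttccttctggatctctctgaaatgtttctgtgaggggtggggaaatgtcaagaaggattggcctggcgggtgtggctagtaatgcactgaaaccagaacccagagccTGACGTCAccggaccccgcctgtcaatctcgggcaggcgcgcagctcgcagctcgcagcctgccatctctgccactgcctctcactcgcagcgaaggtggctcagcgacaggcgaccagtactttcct
Gpr3: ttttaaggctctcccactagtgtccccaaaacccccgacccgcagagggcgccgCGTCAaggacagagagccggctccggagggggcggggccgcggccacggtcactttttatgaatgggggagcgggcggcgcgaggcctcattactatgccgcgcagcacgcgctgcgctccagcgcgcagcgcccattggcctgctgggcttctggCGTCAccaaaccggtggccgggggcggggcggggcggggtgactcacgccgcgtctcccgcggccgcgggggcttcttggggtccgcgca
In the Gpr6 window the element began 78 bases before the start (position -78), and the Gpr3 window held separate half-sites. The full element was in 1 of the 6 windows and in 1.79% of all 32851 RefSeq windows of that length, and the half-site in 2 of 6 and in 20.8%. TATAAA was in 1 of the 6 windows, that of Rgs9, and in 13.6% of all. GGGCGG was in 4 of 6 and in 35.7%, and CCAAT in 3 of 6 and in 37.4%, each on either strand. These are letter matches, and binding was not measured.

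Of the G protein subunits, Gnal encodes the olfactory-type alpha subunit that couples Drd1 and Adora2a to adenylyl cyclase, and lies on chromosome 18 from 67247990 to 67386446. Wildtype brains 1 to 5 had 259, 286, 268, 279.5 and 262 CPM, and knockout brains 1 to 5 had 295, 281, 281, 238 and 264 CPM. The values of the groups were interleaved, with knockout 1 the highest and knockout 4 the lowest of the 10 brains. The Gnal means were 271 ± 11.6 CPM and 272 ± 21.8 CPM (SD, n = 5 each), with a log2 fold change of 0.0041 (SE 0.0552, 95% interval -0.11 to 0.12; edgeR adjusted p = 0.988). Its sign was negative in 11 of 23 alternative analyses. In the table Gnal overlaps Mppe1 (90 to 276 counts per library) and Chmp1b (177 to 574 counts), and whether counting used strand is not given in the sources used here. By the same coordinates Gng7 overlaps Gm3828 (1 to 9 counts), Ppp1r1b overlaps 1700003D09Rik (12 to 45) and Rasgrp2 overlaps Gm14965 (0 to 3).

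Gng7 encodes the gamma subunit that pairs with this alpha subunit in the mouse striatum, and lies on chromosome 10 from 80411369 to 80477690. It was at 166, 174, 153, 175 and 154 CPM in wildtype brains 1 to 5, and at 182, 179.7, 222, 162 and 173 CPM in knockout brains 1 to 5. Knockout 1, 2 and 3 were above all wildtype brains and the other two were within their range. The means of Gng7 were 164 ± 10.4 CPM and 184 ± 22.6 CPM (SD, n = 5 each). Its log2 fold change was 0.16 (SE 0.0721, 95% interval 0.0027 to 0.31), with an unadjusted p of 0.0466 and an adjusted p of 0.328 in edgeR, the lowest of the 8. Without knockout 3, the highest library, the log2 fold change of Gng7 was 0.082, and without knockout 1, 2 and 3 it was 0.023. The ratio of Gng7 to Gnal counts within a library ranged from 0.573 to 0.641 in wildtype and from 0.618 to 0.789 in knockout brains, so the groups overlapped.

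Ppp1r1b encodes DARPP-32, on which cyclic AMP and calcium signals meet in projection neurons of both pathways, and lies on chromosome 11 from 98209718 to 98219110. Its level was 151, 152, 139, 145 and 142 CPM in wildtype brains 1 to 5, and 161, 177, 167, 128 and 154 CPM in knockout brains 1 to 5. Of the 5 knockout brains 4 were above every wildtype brain, and knockout 4 was below every one. The means of Ppp1r1b were 146 ± 5.74 CPM and 157 ± 18.4 CPM (SD, n = 5 each). The log2 fold change was 0.11 (SE 0.0703, 95% interval -0.044 to 0.26; edgeR adjusted p = 0.511). For Ppp1r1b it was 0.18 without knockout 4 (unadjusted p = 0.0036, adjusted p = 0.153), 0.057 without knockout 2, 0.030 without knockout 1 and 2, and -0.064 without knockout 1, 2 and 3.

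Of the regulators, Rgs9 speeds the return of inhibitory G proteins to their resting state and limits signalling by Drd2 and opioid receptors. It lies on chromosome 11 from 109086669 to 109159443. Wildtype brains 1 to 5 had 60.8, 66.1, 60.5, 72.1 and 62.8 CPM of Rgs9, and knockout brains 1 to 5 had 67.7, 72.3, 89.4, 56.9 and 63.7 CPM. Knockout 3 stood clear of the other 9 brains and knockout 4 was the lowest. The means were 64.5 ± 4.85 CPM and 70.0 ± 12.2 CPM (SD, n = 5 each), and the log2 fold change of Rgs9 was 0.11 (SE 0.0953, 95% interval -0.095 to 0.31; edgeR adjusted p = 0.642). It was 0.18 without knockout 4 (unadjusted p = 0.0496, adjusted p = 0.394), 0.015 without knockout 3 and -0.11 without knockout 1, 2 and 3.

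Rasgrp2, a calcium-activated exchange factor that switches on the small GTPase Rap1, lies on chromosome 19 from 6399340 to 6415216. It was at 58.4, 52.5, 48.5, 52.9 and 51.8 CPM in wildtype brains 1 to 5, and at 48.9, 52.9, 58.8, 54.7 and 53.1 CPM in knockout brains 1 to 5. Rasgrp2 had about the same spread in both groups, and its knockout 4 value was not low. Its means were 52.8 ± 3.58 CPM and 53.7 ± 3.59 CPM (SD, n = 5 each), with a log2 fold change of 0.015 (SE 0.0591, 95% interval -0.11 to 0.14; edgeR adjusted p = 0.944). For Rasgrp2 it was -0.014 without knockout 3, 0.065 without knockout 1 and 2, and 0.023 without knockout 1, 2 and 3.

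Syndig1l encodes a membrane protein of the family of Syndig1, which acts at excitatory synapses, and lies on chromosome 12 from 86018228 to 86039757. Its level was 39.7, 37.9, 35.7, 35.4 and 35.4 CPM in wildtype brains 1 to 5, and 37.9, 44.6, 41.8, 34.3 and 35.0 CPM in knockout brains 1 to 5. Knockout 2 and 3 were above the wildtype range, knockout 4 and 5 below it. The means of Syndig1l were 36.8 ± 1.92 CPM and 38.7 ± 4.43 CPM (SD, n = 5 each), with a log2 fold change of 0.069 (SE 0.0753, 95% interval -0.091 to 0.23; edgeR adjusted p = 0.719). For Syndig1l it was 0.12 without knockout 4, 0.0020 without knockout 2, -0.0065 without knockout 1 and 2, and -0.097 without knockout 1, 2 and 3. Its relative Syndig1 was at 38.2 ± 1.93 CPM and 39.3 ± 5.93 CPM (adjusted p = 0.854).

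**Figure D2:**
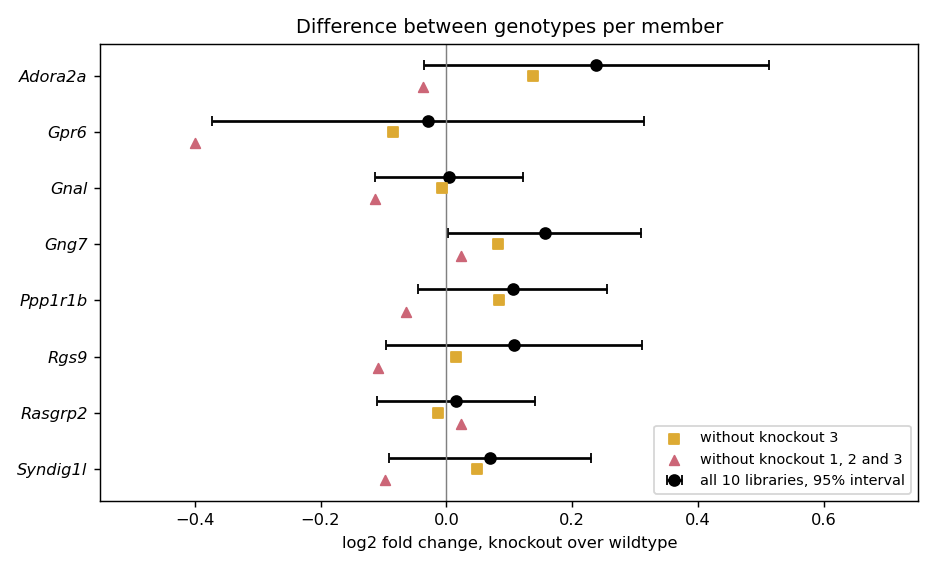
Log2 fold change of each gene, knockout over wildtype (horizontal axis): circles with 95% intervals for all 10 libraries, squares without knockout 3, triangles without knockout 1, 2 and 3. Of the 8 intervals that of Gng7 alone lies above 0 (0.0027 to 0.31), and 6 of the 8 triangles are below 0.

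Per kilobase of transcript, the order of levels in wildtype brains was Gnal at 78.1 ± 3.35 CPM per kb, Ppp1r1b at 72.9 ± 2.87, Gng7 at 48.0 ± 3.04, Rgs9 at 27.9 ± 2.10, Rasgrp2 at 23.0 ± 1.56, Syndig1l at 14.6 ± 0.763, Adora2a at 9.68 ± 1.00 and Gpr6 at 3.75 ± 0.348 (SD, n = 5). Gnal and Ppp1r1b, the first and second, had overlapping wildtype ranges, and no other neighbours in the order did. In knockout brains Gnal at 78.4 ± 6.28 CPM per kb and Ppp1r1b at 78.6 ± 9.18 could not be ordered. The knockout ranges of 3 further neighbouring pairs overlapped as well, Ppp1r1b with Gng7, Rgs9 with Rasgrp2, and Syndig1l with Adora2a. Lengths of 1.786 kb (Gpr6) to 3.47 kb (Gnal) were those of the longest principal transcript in GENCODE, which need not be the transcript the brain uses.

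In 4 of the 5 knockout libraries most of the 8 genes deviated in the same direction from the wildtype mean, and in knockout 5 there were 4 above it and 4 below. Knockout 3 was above the highest wildtype brain for 7 of the 8 genes, knockout 2 for 6, knockout 1 for 3, knockout 5 for 2 and knockout 4 for 0. Knockout 4 was below the lowest wildtype brain for 6 of the 8 genes. The median deviation of the 8 genes from the wildtype mean was 0.24 log2 units in knockout 3, 0.22 in knockout 2, 0.099 in knockout 1, -0.0017 in knockout 5 and -0.18 in knockout 4. In wildtype brains 1 to 5 it was 0.076, 0.051, -0.086, -0.0019 and -0.045. The coefficient of variation was 3.94% to 10.3% over wildtype and 6.69% to 24.9% over knockout brains, higher in knockout brains for 7 of the 8 genes and for 60.0% of all tested genes.

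The libraries at the extremes also differed in other markers. In knockout 3 the 15 cortical excitatory markers averaged 0.16 log2 units above the wildtype mean, and the 8 direct-pathway markers 0.12, beside the loss of cerebellar markers given above. In knockout 4 the cortical markers averaged -0.16, the direct-pathway markers -0.20 and the 10 astrocyte markers 0.15. Summed cortical markers ranged from 1560 to 1610 CPM in wildtype brains and from 1499 to 1803 CPM in knockouts, and none was at 0. Summed astrocyte markers ranged from 3977 to 4324 CPM and from 4021 to 4726 CPM, none at 0. Their part in the levels of the 8 genes was not tested. The median log2 fold change of the 8 genes was 0.031 without knockout 3 and 0.047 without knockout 1 and 2. It was -0.080 without all 3 of these libraries. Among the knockouts these 3 had the highest median deviations of the 8 genes, so a lower value without them follows from that choice. Leaving out single libraries moved the median log2 fold change both ways, to 0.039 without knockout 2 and to 0.15 without knockout 4.

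**Figure D3:**
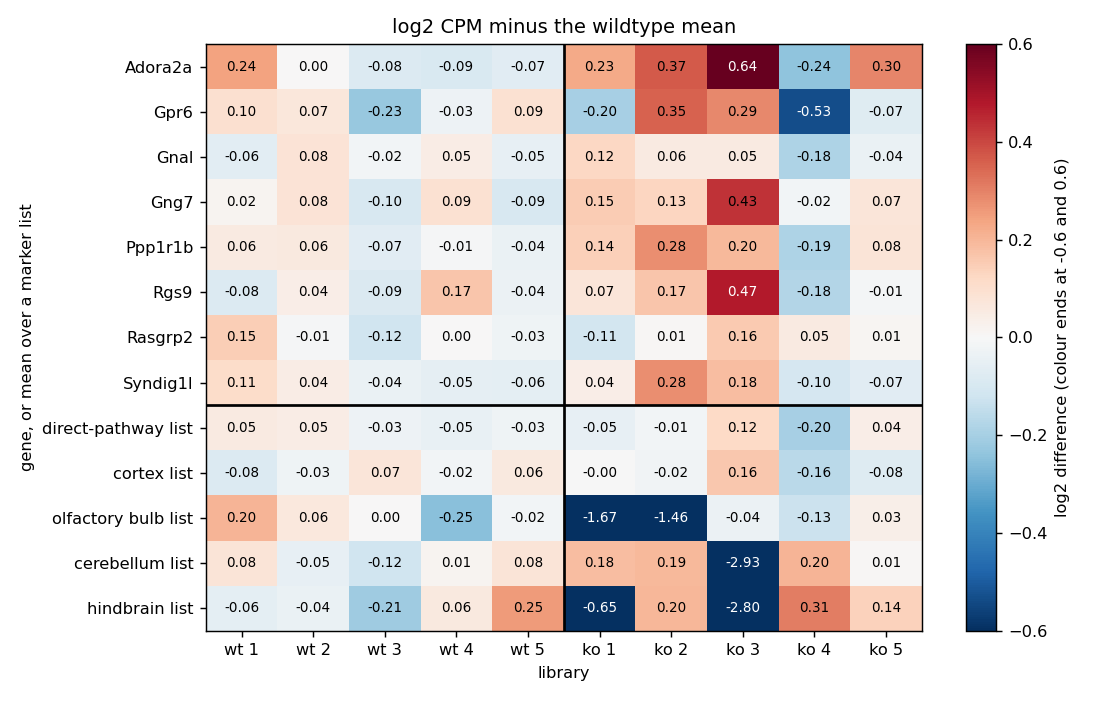
Heat map of log2 CPM minus the wildtype mean for the 8 genes and for the mean over each of 5 marker lists (rows) in 10 libraries (columns); colours end at -0.6 and 0.6 and each cell prints its value. Knockout 3 is raised for most of the 8 genes and at -2.93 for the cerebellar list, and knockout 4 is low for most of the 8 genes.

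Deviations were also compared between genes after centring each gene within its genotype. Over the 28 pairs of the 8 genes the Pearson r across 10 libraries had a median of 0.62, from -0.29 (Gnal with Rasgrp2) to 0.92 (Gng7 with Rgs9), and 27 pairs were above 0. Without knockout 3 the median was 0.51 and 25 pairs were above 0. The r of a gene with the mean of the other members was 0.88 for Adora2a, 0.87 for Gpr6, 0.87 for Ppp1r1b, 0.83 for Rgs9, 0.82 for Gng7, 0.79 for Syndig1l and 0.57 for Gnal. For Rasgrp2 it was 0.30, and -0.020 without knockout 3. These values describe 10 libraries that share depth and tissue makeup across genes, and they carry no test.

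Among 14499 genes with a mean of at least 1 CPM, those most like the mean profile of the 8 genes over the 10 libraries were Adcy5 (r = 0.95), Penk (0.95), Slc8a2 (0.93), Baiap2 (0.93), Hpca (0.93), Slc17a7 (0.92), Rtn4rl2 (0.92), Slit3 (0.92), Gen1 (0.91) and Kdr (0.91). Adcy5 is the main adenylyl cyclase of striatal projection neurons and Penk encodes the enkephalin precursor of indirect-pathway neurons, while Slc17a7 is a glutamate transporter of cortical excitatory neurons. Without knockout 3, 6 of these 10 genes remained among the 10 most alike, and Adcy5 was again first (r = 0.91 over 9 libraries). Adcy5 was at 246 ± 8.76 CPM in wildtype brains and 261 ± 23.8 CPM in knockouts, a log2 fold change of 0.08 (adjusted p = 0.533), and Penk at 146 ± 4.84 CPM and 158 ± 14.3 CPM (adjusted p = 0.380). Slc8a2, Hpca and Slc17a7 also had estimates above 0, at 0.09, 0.15 and 0.08. Baiap2, Rtn4rl2, Slit3, Gen1 and Kdr had estimates below 0, at -0.07, -0.10, -0.06, -0.04 and -0.20. The lowest edgeR adjusted p of these 10 genes was 0.260, for Hpca.

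The lists of projection neuron markers include the 8 genes themselves, 2 in the indirect-pathway list and 6 in the pan-striatal list. Of the 8 tested direct-pathway, 7 indirect-pathway and 31 pan-striatal markers (Gpr52 was not analysed here), edgeR called 0, with 1, 0 and 2 at an unadjusted p under 0.05. In edgeR 1.18% of all tested genes were called and 14.8% had an unadjusted p under 0.05, so 0 calls do not set these lists apart. DESeq2 and limma-voom also called 0 in each list, and sample weights in limma-voom added Chrm4 and Gad1, both lower. The median log2 fold changes of the direct-pathway, indirect-pathway and pan-striatal lists were -0.022, 0.0072 and 0.0055, against 0.0042 over all tested genes. The muscarinic receptor Chrm4 was at 29.3 ± 2.34 CPM in wildtype brains and 24.6 ± 4.25 CPM in knockouts (log2 fold change -0.28, adjusted p = 0.187), and Gad1, an enzyme of GABA synthesis, at 521 ± 8.85 CPM and 477 ± 28.9 CPM (-0.13, adjusted p = 0.184). Of the direct-pathway peptides, Pdyn was at 21.0 ± 0.885 CPM and 24.1 ± 4.02 CPM (0.17, adjusted p = 0.459), and Tac1 at 32.1 ± 2.05 CPM and 33.7 ± 5.56 CPM (0.05, adjusted p = 0.88). In the indirect-pathway list, the kainate receptor subunit Grik3 was at 130.3 ± 4.60 CPM and 125 ± 6.73 CPM (adjusted p = 0.568).

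The dopamine receptors themselves did not pass the test. Drd1 (Drd1a in the table) was at 25.8, 26.9, 28.8, 26.6 and 29.2 CPM in wildtype brains 1 to 5, and at 26.5, 25.2, 36.1, 16.4 and 24.3 CPM in knockout brains 1 to 5, a log2 fold change of -0.13 (SE 0.145, edgeR adjusted p = 0.721). As for Adora2a and Rgs9, knockout 3 was the highest and knockout 4 the lowest library. Drd2 was at 26.2 ± 3.23 CPM and 28.5 ± 4.39 CPM, with a log2 fold change of 0.09 (adjusted p = 0.754). Within libraries, the ratio of Adora2a to Drd1 counts averaged 0.921 ± 0.137 in wildtype and 1.21 ± 0.102 in knockout brains (SD, n = 5 each), with groups that overlapped. The ratio of Adora2a to Drd2 averaged 0.962 ± 0.0698 and 1.07 ± 0.138.

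Around the 8 genes, edgeR called 3 genes of their pathways and families, all lower in knockout brains, as were 140 of the 171 genes called in all. Together with the neuron markers, the pathway and family lists made 7 lists with 133 tested genes beyond the 8. Of these, 0 passed as higher and 3 as lower (2.26%, against 1.18% of all tested genes in both directions), with 14 at an unadjusted p under 0.05 (10.5%, against 14.8%). DESeq2 and limma-voom also called 0 as higher and the same 3 genes, Gpr3, Creb1 and Rap1b, as lower. The median log2 fold change of the 133 genes was 0.0072.

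In the list of the olfactory-type G protein, cyclic AMP and DARPP-32 pathway, 1 of 43 tested genes passed, with a list median of 0.033. This was Creb1, which encodes the transcription factor CREB that protein kinase A activates. Creb1 was at 81.2, 82.4, 99.1, 86.5 and 89.9 CPM in wildtype brains 1 to 5, and at 74.6, 68.6, 67.0, 69.3 and 78.9 CPM in knockout brains 1 to 5, with no overlap between groups. It fell by 0.29 on the log2 scale (SE 0.0611, edgeR adjusted p = 0.0303). The adjusted p of Creb1 ranged from 0.0192 to 0.0959 when each library was left out in turn, and it was above 0.05 without wildtype 3, 4 or 5 or knockout 1, 2 or 4. It was also above 0.05 with the replicate number as a block (0.0644), among the shallower libraries (0.190), without knockout 1 and 2 (0.168) and without knockout 1, 2 and 3 (0.156). The log2 fold change of Creb1 was -0.28 among the shallower libraries, -0.29 without knockout 1 and 2, and -0.25 without knockout 1, 2 and 3. It was -0.24 among the deeper libraries, which hold 1 wildtype library. Upstream, Gnas, which encodes the general stimulatory alpha subunit, was at 59.0 ± 1.30 CPM and 60.5 ± 7.51 CPM (adjusted p = 0.807), and Ric8b, a chaperone of the olfactory-type alpha subunit, at 67.3 ± 3.12 CPM and 60.6 ± 5.44 CPM (-0.16, adjusted p = 0.234). The 2 most abundant genes of the list were the adenylyl cyclase Adcy1, at 1455 ± 51.8 CPM and 1446 ± 200.4 CPM (adjusted p = 0.978), and the calcineurin subunit Ppp3ca, at 892 ± 42.3 CPM and 916 ± 85.0 CPM (adjusted p = 0.82). Pde10a, the striatal phosphodiesterase that breaks down cyclic AMP, was at 221 ± 8.01 CPM and 248 ± 41.1 CPM (0.17, adjusted p = 0.418).

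In the list of Rasgrp2, Rap and the kinases downstream, 1 of 26 tested genes passed, with a list median of 0.014. This was Rap1b, a small GTPase of the kind that Rasgrp2 switches on. Its level was 64.0, 63.7, 71.0, 66.9 and 65.0 CPM in wildtype brains 1 to 5, and 53.9, 55.2, 61.1, 56.0 and 56.0 CPM in knockout brains 1 to 5. Every knockout brain was below every wildtype brain, and Rap1b fell by 0.23 on the log2 scale (SE 0.0484, edgeR adjusted p = 0.0314). The adjusted p of Rap1b ranged from 0.0090 to 0.0991 when each library was left out in turn. It was above 0.05 without any 1 of wildtype 2, 3, 4 and 5 or knockout 1, 2, 4 and 5. It was also above 0.05 with the replicate number as a block (0.0517), with upper-quartile scaling (0.05001), among the shallower libraries (0.198), without knockout 1 and 2 (0.224) and without knockout 1, 2 and 3 (0.102). The log2 fold change of Rap1b was -0.23 among the shallower libraries, -0.20 without knockout 1 and 2, and -0.24 without knockout 1, 2 and 3. It was -0.21 among the deeper libraries, which hold 1 wildtype library. The related GTPase Nras was at 52.1 ± 2.70 CPM and 47.6 ± 4.01 CPM (-0.13, adjusted p = 0.325).

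The Rap1b window is shown because Rap1b, like Gpr6, held the full cyclic AMP response element, here 42 bases before the start (position -42). It is chr10:117845925-117846224 in GRCm38.p6, read from the minus strand 5′ to 3′ from RefSeq, with the half-site on either strand in capitals.
Rap1b: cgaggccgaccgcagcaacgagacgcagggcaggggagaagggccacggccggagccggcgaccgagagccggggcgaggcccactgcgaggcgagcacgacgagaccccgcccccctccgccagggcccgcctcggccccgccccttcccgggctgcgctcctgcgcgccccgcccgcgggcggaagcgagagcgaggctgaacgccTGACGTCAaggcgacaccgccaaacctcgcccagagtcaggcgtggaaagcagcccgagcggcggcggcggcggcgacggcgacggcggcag
The Creb1 window held no match to the element or its half-site.

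**Figure D4:**
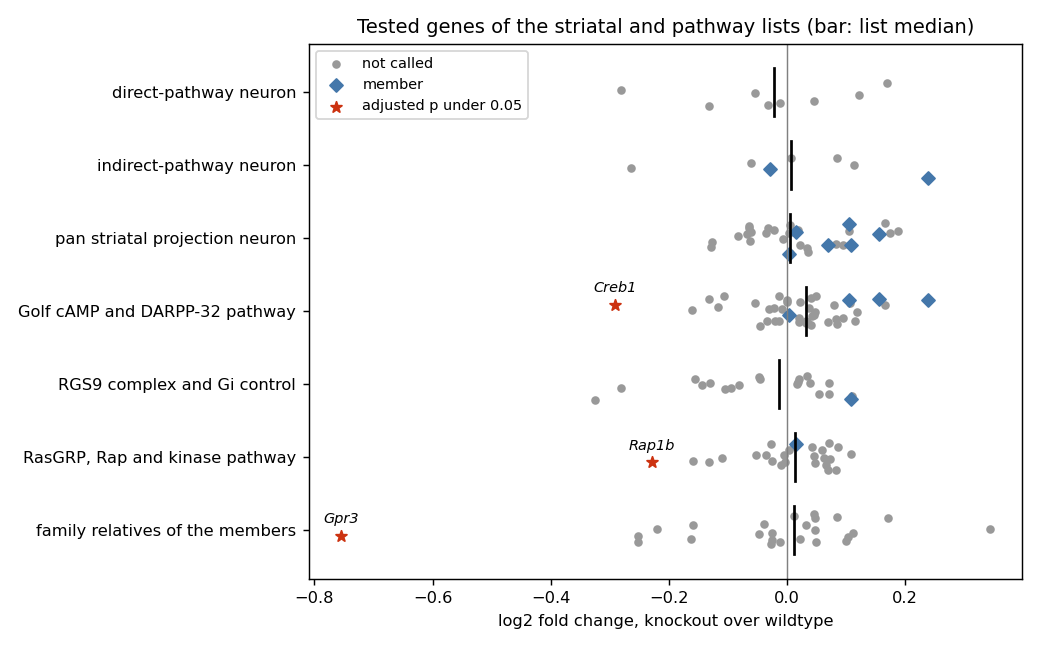
Log2 fold change, knockout over wildtype (horizontal axis), of each tested gene in 7 lists (rows, jittered vertically); diamonds are members of the group of 8, stars pass an adjusted p of 0.05, bars are list medians. The list medians lie between -0.022 and 0.033, and Creb1, Rap1b and Gpr3 are the starred genes.

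In the list of Rgs9 partners and inhibitory signalling, 0 of 20 tested genes passed in edgeR, in DESeq2 or in unweighted limma-voom, with 3 at an unadjusted p under 0.05 and a median log2 fold change of -0.014. Of all tested genes, 1.18% were called in edgeR and 14.8% had an unadjusted p under 0.05. Weighting the samples in limma-voom called Chrm4 and the delta opioid receptor Oprd1, both lower. Oprd1 was at 16.6 ± 0.469 CPM and 13.6 ± 2.95 CPM (-0.33, adjusted p = 0.194). Of the Rgs9 binding partners, Gnb5, the beta subunit that holds Rgs9, was at 116 ± 2.16 CPM and 118 ± 5.44 CPM (adjusted p = 0.881), and the anchor Rgs7bp at 347 ± 25.9 CPM and 323 ± 25.1 CPM (adjusted p = 0.45). Among 25 tested family relatives, whose median was 0.011, Gpr3 was the 1 gene that passed. Adora1, the adenosine receptor that lowers cyclic AMP, was at 224 ± 8.63 CPM and 216 ± 13.9 CPM (adjusted p = 0.701), and Rasgrp1 at 404 ± 28.8 CPM and 397 ± 80.0 CPM (adjusted p = 0.947).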

How the data were processed

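The authors deposited whole-number counts per Ensembl gene and library. The submitters' processing notes name TopHat2 2.0.6, HTSeq, edgeR and limma, and the genome build is not given in the sources used here. A further 10 columns of per-library values were not used.

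The counts were fitted in edgeR 4.0.16 (R 4.3.3) after filterByExpr (minimum count 10, minimum total 15) and TMM scaling (factors 0.982 to 1.01). Knockout was tested against wildtype with genotype as the only term of a quasi-likelihood model, with Benjamini-Hochberg adjustment over 14526 genes. The common biological coefficient of variation was 0.071. Levels are CPM scaled by TMM, and log2 CPM had a prior count of 2. Replicates were separate brains, and chi-square per degree of freedom between them was 1.29 to 12.1. Poisson intervals cover counting error only. The method was tested on simulated data.

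Alternatives were DESeq2 1.42.0, limma-voom (limma 3.58.1), other scalings, filters and thresholds, a replicate block, depth classes, and libraries left out. Leaving out knockout 1 and 2, or 1 to 3, was chosen after seeing the data. The 8 genes and all lists were chosen with earlier results of these data known. The text names the 8 genes, the called genes of each list, the 2 with the smallest p and the 2 most abundant of a list (not all are printed), the 10 genes most alike, and Abcc5. Relatives, partners and marker values beyond that rule were chosen after their values were seen. A gene that this rule names is not reported here.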

Additional observations from a re-analysis of the deposited data

Results flagged for a closer look

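The Adora2a level of wildtype 1, at 29.7 CPM, stood far above the other 4 wildtype brains, of which the next was at 25.1 CPM and the median of the group at 23.9 CPM. Its gap to the nearest brain was 0.744 of the range of the group, above the 0.71 allowed by Dixon's test for 5 samples. It was the 1 such value in 24 groups examined, and chance alone gives about 1 in 20. Wildtype 1 is also the 1 deeper library among the wildtype brains. Without it the log2 fold change of Adora2a was 0.32, with an adjusted p of 0.229 in edgeR.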

How the results depend on the processing

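In edgeR, DESeq2 and limma-voom 0 of the 8 genes were called under the 25 alternatives run, with 1 of 8 at an unadjusted p under 0.05 in edgeR over all libraries. The lowest adjusted p of any was 0.0939. Of 23 alternatives with a fold change, the sign changed in 11 for Gnal, in 4 each for Gpr6 and Rasgrp2 and in 3 for Syndig1l. It changed in 2 for Adora2a, in 1 each for Ppp1r1b and Rgs9, and in 0 for Gng7. When each library was left out in turn, the log2 fold change ran from -0.20 to 0.13 for Gpr6, from -0.025 to 0.049 for Gnal and from -0.015 to 0.059 for Rasgrp2. Among shallower libraries Gpr6 was 0.026. Among deeper libraries Adora2a was -0.16, Gnal -0.0016, Rasgrp2 -0.12 and Syndig1l -0.016. With depth class as a term Rasgrp2 was -0.0054, and Gnal was -0.00084 in limma-voom and -0.0064 with sample weights. Without knockout 1 and 2 Gnal was -0.055 and Syndig1l -0.0065. Without knockout 1, 2 and 3 Adora2a was -0.037, Gnal -0.11, Ppp1r1b -0.064, Rgs9 -0.11 and Syndig1l -0.097, and the median of the 8 was -0.080. The cause was not tested.

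The count of all genes called was 171, with 3 in the striatal and pathway lists. Leaving out each library gave 76 to 341 genes and 1 to 6 list genes, the most without knockout 3. The shallower libraries gave 31 genes and 0 list genes in edgeR, with 21 list genes at an unadjusted p under 0.05, the deeper ones 336 genes, DESeq2 261 genes, limma-voom with sample weights 563 and 6, and leaving out knockout 1 and 2 gave 62 and 1. A threshold of 0.01 gave 63 and 1, and 0.1 gave 373 genes. The replicate block gave 90 genes and 1 list gene, with Creb1 and Rap1b no longer called. Same-numbered brains had deviations that correlated at -0.14 to 0.089, and 1 of 5 wildtype brains was most like the knockout brain of its own number, so the numbers were not taken as pairs. Of the 10 genes most alike, 6 remained without knockout 3. Depth limits Gpr6, whose counts began at 44.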

Other observations

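Among 13 tested markers of striatal interneurons (Slc18a3 and Lhx8 were not analysed here), edgeR, DESeq2 and limma-voom called 0, with 2 at an unadjusted p under 0.05 and a median log2 fold change of 0.029. Of all tested genes, 1.18% were called in edgeR and 14.8% had an unadjusted p under 0.05. Sst, the somatostatin gene of an interneuron class in the striatum and cortex, was at 87.8 ± 4.61 CPM in wildtype brains and 104.9 ± 13.9 CPM in knockouts (n = 5 each). Its log2 fold change was 0.25, with an adjusted p of 0.134 in edgeR, and weighted limma-voom called it higher. Npy, which many of the same cells make, was at 29.3 ± 2.22 CPM and 34.9 ± 4.72 CPM (0.23, adjusted p = 0.214). Chat, the enzyme of acetylcholine synthesis in cholinergic interneurons, was at 5.82 ± 0.919 CPM and 6.87 ± 0.752 CPM (0.20, adjusted p = 0.445).

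Of the lists for other regions and cell types, edgeR called 4 genes, where 1.18% of all tested genes were called. Eomes of the olfactory bulb list was lower, Avp of the hypothalamus list was higher, and C1qb and C1qc of the microglia list were higher. DESeq2 called these and the microglial genes C1qa and Cx3cr1, also higher. With sample weights, limma-voom added C1qa and Hdc as higher and Cdhr1, Ms4a15 and Rgs16 as lower. The median log2 fold change was -0.48 over 11 olfactory bulb, 0.30 over 10 hypothalamus and 0.16 over 10 microglia markers. It was -0.084 over 20 cerebellar, -0.12 over 8 hindbrain and spinal cord, -0.024 over 10 choroid plexus, 0.0055 over 15 cortical, 0.0029 over 11 thalamic, 0.014 over 11 hippocampal, 0.042 over 10 astrocyte and -0.0015 over 10 oligodendrocyte markers.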
